A study of Mus musculus with 18 samples.

Results

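Intestinal Pgc1α deletion was compared with its floxed control under a Western diet (WD), using every gene that the microarray could measure in ileum cells. The members were the 12 arrays labelled with this diet, of 18 arrays in all: 6 from iPgc1α-/- mice and 6 from Pgc1α fl/fl mice. All of them were male C57BL6/J mice whose Ppargc1a alleles, the gene for Pgc1α, carry loxP sites. The iPgc1α-/- mice also carried Cre recombinase under the Villin promoter, which is active in the intestinal epithelium and not in immune, stromal or muscle cells. WD supplied 42% of its kcal as fat together with 0.2% cholesterol, and was eaten for 8 weeks from 8 weeks of age, and the labels call it a high-fat diet. The other 6 arrays, from Pgc1α fl/fl mice on chow, entered the model to share the estimate of spread and are given below as a reference level. No chow-fed knockout entered the analysis, so the genotype difference is given on WD alone.

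Pgc1α is a transcriptional coactivator. It has no DNA-binding domain of its own and is recruited by nuclear receptors such as the estrogen-related receptors (ERRs) and the PPARs, and by nuclear respiratory factors. It is best known for raising the transcription of nuclear genes that encode the respiratory chain, the citric acid cycle and mitochondrial antioxidant enzymes. In the gut of chow-fed mice it is found mainly in the differentiated enterocytes of the villus. These cells are exposed to dietary lipid and take up fatty acids and cholesterol. On WD, the study saw Pgc1α spread more widely between crypt and villus.

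Signal is given as log2 of the normalised spot intensity, and differences as log2 of iPgc1α-/- over Pgc1α fl/fl, where 0 is no difference. Spots of different probes are not comparable in level. Of all spots, 56.3% to 61.7% were well above background in the floxed arrays and 56.7% to 62.3% in the knockout arrays, and the median spot signal was 39 to 52 and 42 to 61 units. By the scan date in the scanner files the arrays fell into 3 sets, each with 2 WD arrays of either genotype. These sets are called slides below, although no slide label was read. Defining markers of the ileal enterocyte were bright in all 12 arrays. The bile acid-binding protein Fabp6 had signals of 16.63 to 17.23 in the floxed arrays (median 17.06) and 16.24 to 17.29 in the knockout arrays (median 16.69). The actin-bundling protein Vil1, whose promoter drove Cre, had 16.29 to 16.59 (median 16.54) and 16.48 to 16.66 (median 16.55). Both genes overlapped between genotypes.

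The targeted gene was examined first. Both of its probes lie at the 3′ end of the transcript, 491 bases apart in the transcript and in the genome, and therefore within one exon. One of them covers the end of the coding sequence, shown here because it fixes what the array can see of the deletion (chr5:51849419-51849478, mm9, minus strand of the genome, stop codon in capitals):

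Ppargc1a coding probe: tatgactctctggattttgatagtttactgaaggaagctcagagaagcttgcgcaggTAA

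The deleted exons lie upstream of this stretch, so neither probe checks the deletion. The coding probe had signals of 8.97 to 9.39 in the floxed arrays (median 9.11) and 9.32 to 9.71 in the knockout arrays (median 9.51). The knockout arrays were the higher by their median, and the ranges met between 9.32 and 9.39. The difference was 0.36 (SE 0.16; limma, adjusted p = 0.495; exact two-sided permutation p = 0.00433 over the 924 divisions of 12 mice). At the brighter probe it was 0.30 (SE 0.16, adjusted p = 0.572, exact permutation p = 0.0173). Directions below therefore refer to the arrays as labelled.

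In all, 35 of 21542 genes were called, 0.162% of those tested, when at least 1 probe had an adjusted p of 0.05 or lower (limma, Benjamini-Hochberg) and a fold change above 1.5. Of these, 19 genes (0.0882%) were higher and 16 (0.0743%) lower in iPgc1α-/- mice. With the signal background-subtracted by the scanner software and scaled to the 75th percentile, the split was 14 higher and 23 lower. For 31 of the 35 genes the arrays of one genotype all lay beyond those of the other at a called probe. Over all genes, at the brightest probe, 0.32% were higher and 0.645% lower without overlap. The genes were called on these same arrays, so the separation adds no support of its own. The called genes are taken below by role, with the gene lists they belong to.

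**Figure D1:**
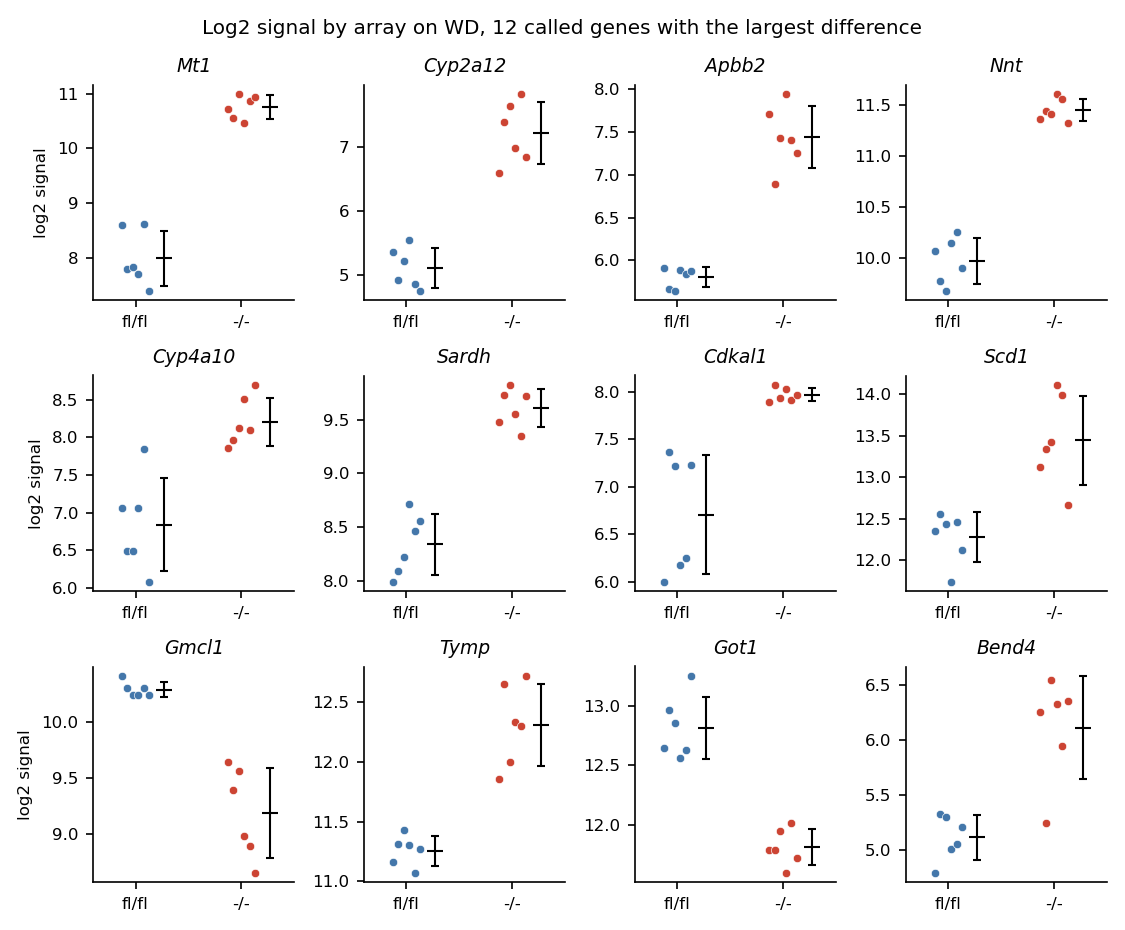
Log2 signal of the 12 called genes with a gene symbol and the largest difference, at the called probe, in Pgc1α fl/fl (fl/fl) and iPgc1α-/- (-/-) mice on WD. Each point is 1 array and the bar is the mean ± SD (n = 6); every panel has its own axis, and the genotypes overlap only in Bend4.

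Nnt and Got1, enzymes of mitochondrial NADPH supply and of the malate-aspartate shuttle, moved in opposite directions. Nnt, the inner membrane transhydrogenase that makes NADPH from NADH, had signals of 9.68 to 10.26 in the floxed arrays (median 9.98) and 11.32 to 11.60 in the knockout arrays (median 11.43). Every knockout array lay above every floxed one, and the difference was 1.48 (SE 0.10, adjusted p = 1.54e-07). The probe near the 5′ end of the transcript rose by less, 0.61 (SE 0.10, adjusted p = 0.00528), and a probe for an alternative transcript differed by 0.06 (adjusted p = 0.86). The C57BL/6J substrain is known for a deletion inside Nnt that other substrains lack, and whether the 2 genotypes differ in it was not tested.

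Got1, the cytosolic aspartate aminotransferase of the malate-aspartate shuttle, fell from 12.56 to 13.25 (median 12.75) to 11.60 to 12.02 (median 11.79). The difference was -1.01 (SE 0.12, adjusted p = 1.79e-04), and its other probes gave -0.75 and -0.73. Me3 and Slc25a12 of the same list also passed the test. Me3, a mitochondrial malic enzyme, was lower by 0.70 on the log2 scale (-0.70, SE 0.13, adjusted p = 0.0237), with overlap between genotypes. Slc25a12, the aspartate-glutamate carrier of the shuttle, differed by -0.43 at 2 of its 5 probes (adjusted p = 0.0496 and 0.0488), below the fold threshold, and by -0.31 to -0.26 at the others. Of the 19 measured genes of this list, 1 was higher and 5 lower at an unadjusted p under 0.05, against 4.38% and 4.92% of all genes in each direction, while its median difference was -0.02.

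The respiratory chain was lower in many small steps. Of 49 genes for complex I, the NADH dehydrogenase at the entry of the chain, 44 had a lower mean in iPgc1α-/- mice, 26 at an unadjusted p under 0.05 and 0 in the other direction. The corresponding background is 4.92% of all genes, and 6.91% of the 5386 brightest genes, of which 4.07% were higher. In 10 of the 49 all knockout arrays lay below all floxed arrays, against 0.645% of all genes and 1.36% of the 5386 brightest, and in none all lay above (0.32% of all genes). One of them, Ndufc2, passed the adjusted test, as 0.162% of all genes did in this direction at their brightest probe and 0.065% in the other: its signals were 13.29 to 13.39 in the floxed arrays (median 13.32) and 12.79 to 13.12 in the knockout arrays (median 13.02), a difference of -0.34 (SE 0.07, adjusted p = 0.0488). The next in order, Ndufa12, an accessory subunit, had -0.35 with an adjusted p of 0.0847. The largest differences by size were those of Ndufc1 (-0.39) and Ndufa5 (-0.38), also accessory subunits, neither of which passed after adjustment.

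Complexes II to IV, cytochrome c and the ATP synthase gave the same picture. Of 54 genes, 48 had a lower mean, 30 of them at an unadjusted p under 0.05, and 10 without overlap. Cox11, a copper chaperone for cytochrome c oxidase, passed the adjusted test, with 10.14 to 10.62 in the floxed arrays (median 10.41) and 9.88 to 10.06 in the knockout arrays (median 9.96). Its difference was -0.42 (SE 0.09, adjusted p = 0.045). Cox7a1, a subunit of the oxidase, had the lowest difference of the list, -0.48 (adjusted p = 0.178), followed by Cox10, which makes its haem, with -0.44 (adjusted p = 0.273), and Cycs, cytochrome c, with -0.43 (adjusted p = 0.263). The ATP synthase subunit Atp5b differed by -0.24 (adjusted p = 0.301).

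Over the 103 genes of both lists the median difference was -0.18, a fold of 1.13, where all genes tested had a median of 0.01. Averaged per array, the complex I genes were 0.02 to 0.20 above the mean of the 12 arrays in the floxed mice and between -0.23 and 0.00 in the knockout mice. The genotypes did not overlap on this scale, nor did they for complexes II to IV. Within the 3 slides the complex I average differed by -0.09, -0.16 and -0.26. The floxed mice on chow lay between -0.02 and 0.16, so the knockout mice on WD were the lowest of the 3 groups by their median.

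**Figure D2:**
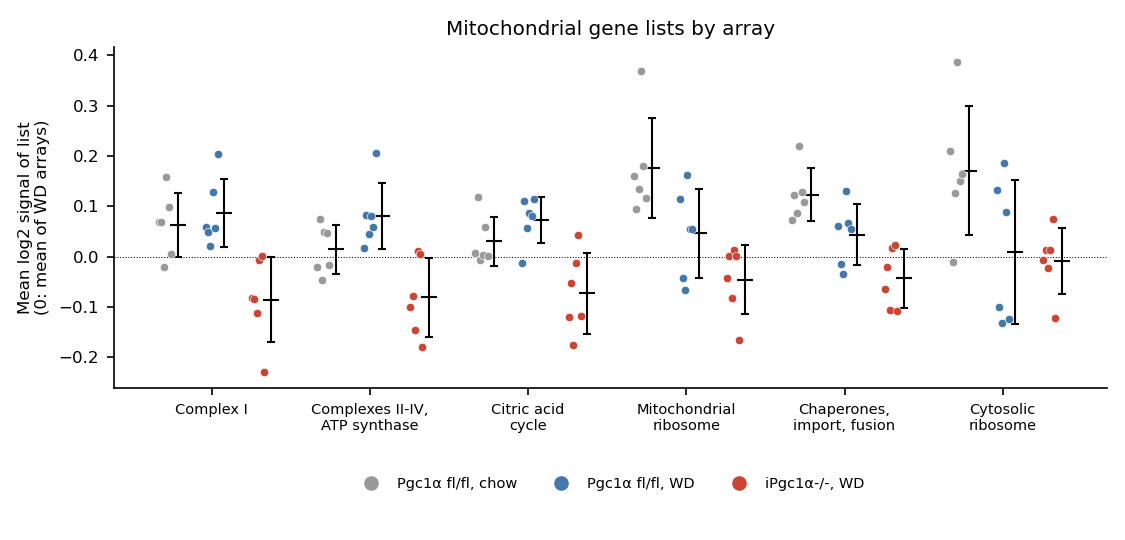
Mean log2 signal of 5 mitochondrial gene lists and of the cytosolic ribosomal proteins for each array, with each gene centred on its mean over the 12 arrays on WD. Points are arrays, bars are mean ± SD (n = 6 for each group), and in the 2 respiratory chain lists no iPgc1α-/- array reaches the lowest Pgc1α fl/fl array on WD.

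Against these, Sco2 and Surf1, both needed to assemble the oxidase, were the members higher at an unadjusted p under 0.05. Surf1 differed by 0.15 (adjusted p = 0.511). Sco2, a copper chaperone, was called, with 11.92 to 12.27 in the floxed arrays (median 12.10) and 12.69 to 13.37 in the knockout arrays (median 13.11). Its difference was 0.95 (SE 0.14, adjusted p = 0.00291). The neighbouring gene Tymp, which degrades thymidine and so affects mitochondrial nucleotide pools, rose by 1.05 (SE 0.15, adjusted p = 0.00241). The probes of both genes lie 0.087 kb apart on chromosome 15, and whether they report 1 shared transcript was not tested. Outside the lists, Cox6b2, an oxidase subunit best known from testis, rose by 0.59 (SE 0.11, adjusted p = 0.0237).

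Transcripts of the mitochondrial genome itself were examined separately. Of the 16 probes placed on the mitochondrial chromosome, 1 was lower at an unadjusted p under 0.05 (ND6, a complex I subunit, -0.43) and the median difference was -0.02. COX1 differed by 0.09 and CYTB by 0.00.

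In the citric acid cycle, 9 of 23 genes were lower at an unadjusted p under 0.05 and 0 were higher, with a median of -0.14. Idh3a, the catalytic subunit of the NAD-dependent isocitrate dehydrogenase, fell from 11.34 to 11.56 (median 11.46) to 10.78 to 11.10 (median 10.97). No arrays overlapped, and the difference was -0.51 (SE 0.07, adjusted p = 0.00225), short of the fold threshold. Its partner subunits did not follow: Idh3b differed by 0.10 (adjusted p = 0.817) and Idh3g by -0.09 at its brightest probe (adjusted p = 0.658). Dlat of the pyruvate dehydrogenase complex had -0.34 and the succinate dehydrogenase subunit Sdhd -0.30, neither past the adjusted test.

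Proteins that shape and supply the organelle were affected one by one. Chchd10, a protein of the intermembrane space at the cristae, had signals of 15.10 to 15.49 in the 5 floxed arrays left after an outlier spot was removed (median 15.12), and 14.06 to 14.77 in the knockout arrays (median 14.45). It was lower by 0.74 (-0.74, SE 0.13, adjusted p = 0.0122). Apoo, a subunit of the MICOS complex that holds cristae junctions, fell by 0.49 (-0.49, SE 0.08, adjusted p = 0.0122). Mtx2, part of the outer membrane sorting machinery, differed by -0.54 and -0.48 at its probes (adjusted p = 0.00291 and 0.0122), and 1 of 4 probes for Chchd3, another MICOS subunit, by -0.41 (adjusted p = 0.0313), the others giving -0.32 to -0.23.

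Over the list of 66 chaperone, import and fusion genes, 14 were lower and 1, Tymp, was higher at an unadjusted p under 0.05, with a median of -0.08. The ATP/ADP carrier Slc25a4 (-0.60), the MICOS core protein Immt (-0.48) and the import channel protein Timm17a (-0.40) missed the adjusted threshold although none of their arrays overlapped. Of 78 mitochondrial ribosomal proteins, 14 were lower and 0 higher at an unadjusted p under 0.05, and the median was -0.09, or -0.05 without iPgc1α-/- replicate 6. The largest of these was Mrpl12 with -0.35 (adjusted p = 0.198).

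**Figure D3:**
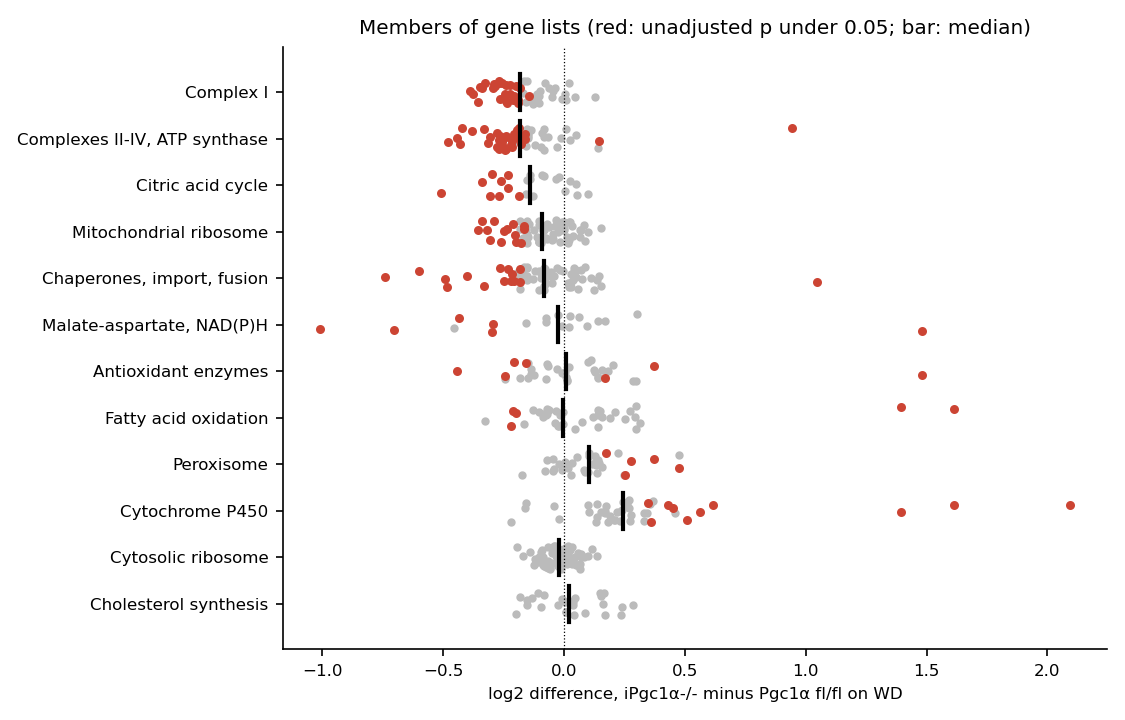
Difference of each gene (x axis, log2 of iPgc1α-/- over Pgc1α fl/fl on WD) in 12 gene lists, 1 point per gene at its brightest probe. Red points have an unadjusted p under 0.05 and black bars mark list medians, which run from -0.18 for the respiratory chain lists to 0.24 for the cytochrome P450 genes.

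Among the partners of Pgc1α the receptor Esrra, through which it acts on the respiratory chain genes, was itself lower. Its signals were 14.43 to 14.75 in the floxed arrays (median 14.60) and 14.03 to 14.30 in the knockout arrays (median 14.26). The difference was -0.40 (SE 0.08, adjusted p = 0.0488), without overlap. Sirt3, a mitochondrial deacetylase, had -0.37 (adjusted p = 0.0849) and the thyroid hormone receptor Thra -0.27 (adjusted p = 0.449). Of the 38 factors in the list, 4 were lower at an unadjusted p under 0.05 (these 3 and the kinase subunit Prkaa2, -0.27) and 1 was higher (Hnf4g, 0.35), and the median was 0.00. Tfam, which maintains mitochondrial DNA, differed by -0.01 (adjusted p = 0.984).

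Promoters of the respiratory chain genes were searched for 3 motifs, in the 250 bases before the RefSeq gene start (GRCm38.p6) and on both strands. The motifs were the ERR element TNAAGGTCA, the nuclear respiratory factor 1 (NRF1) element, a palindrome, and the ETS core CCGGAAGT. Of the 103 genes, 87 had a promoter entry. The ERR element was present in 2 of them (2.3%, against 1.3% of 27025 genes with an entry), the NRF1 element in 5 (5.75% against 0.877%) and the ETS core in 6 (6.9% against 3.23%). For the cytosolic ribosomal proteins, of which 0 of 79 reached an unadjusted p of 0.05, these shares were 3.45%, 0% and 13.8% of 58 genes with an entry. For the mitochondrial ribosomal proteins they were 0%, 4.35% and 14.5% of 69. Of 20 citric acid cycle genes with an entry, 0 held any of the 3 motifs. Of 38 cytochrome P450 genes with an entry, a list taken up below, 2 held the ERR element (5.26%). The shares for the NRF1 element and the ETS core were 0% there. The same windows are shown for Esrra, which passed the test and holds none of the 3, and for 3 subunit genes at an unadjusted p under 0.05. These are Atp5g3 and Ndufb4, the only holders of the ERR element in the respiratory chain lists, and Ndufa11, which holds the NRF1 element. No window shown holds more than 1 match. Matches are in capitals, and each sequence reads 5′ to 3′ toward the gene.

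Esrra (chr19:6921809-6922058, minus strand): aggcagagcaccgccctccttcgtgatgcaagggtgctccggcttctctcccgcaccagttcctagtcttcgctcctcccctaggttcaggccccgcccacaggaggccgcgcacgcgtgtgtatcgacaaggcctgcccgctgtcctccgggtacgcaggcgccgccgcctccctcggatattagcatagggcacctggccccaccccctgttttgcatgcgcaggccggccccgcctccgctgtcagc
Atp5g3 (chr2:73911327-73911576, minus strand): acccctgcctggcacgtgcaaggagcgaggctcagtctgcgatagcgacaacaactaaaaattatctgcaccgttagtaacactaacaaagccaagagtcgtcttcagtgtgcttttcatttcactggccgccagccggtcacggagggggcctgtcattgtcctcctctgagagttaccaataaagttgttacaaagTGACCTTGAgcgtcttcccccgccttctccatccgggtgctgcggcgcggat
Ndufb4 (chr16:37654369-37654618, minus strand): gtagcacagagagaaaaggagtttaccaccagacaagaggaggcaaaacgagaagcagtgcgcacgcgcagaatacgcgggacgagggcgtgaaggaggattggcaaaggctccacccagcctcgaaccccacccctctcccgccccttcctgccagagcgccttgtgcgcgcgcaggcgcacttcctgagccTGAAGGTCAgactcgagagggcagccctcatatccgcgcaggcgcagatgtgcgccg
Ndufa11 (chr17:56717512-56717761, plus strand): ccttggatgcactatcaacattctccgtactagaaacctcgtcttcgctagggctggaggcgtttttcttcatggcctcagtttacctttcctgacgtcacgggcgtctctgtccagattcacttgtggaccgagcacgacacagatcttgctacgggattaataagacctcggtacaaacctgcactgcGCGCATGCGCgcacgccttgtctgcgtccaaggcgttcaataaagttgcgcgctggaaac

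These 3 subunit genes differed by -0.28 (Atp5g3), -0.24 (Ndufb4) and -0.19 (Ndufa11), with adjusted p of 0.26, 0.422 and 0.377. The matches are a description of letters in these windows and not of binding.

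Antioxidant enzymes were mixed. Sod2, the mitochondrial superoxide dismutase, had -0.44 (adjusted p = 0.196) and the mitochondrial peroxiredoxin Prdx3 -0.20 (adjusted p = 0.401). The catalase gene Cat had 0.37, short of the adjusted threshold, and the cytosolic Sod1 0.17 (adjusted p = 0.479). With Nnt, 3 of 35 were higher and 4 lower at an unadjusted p under 0.05, and the median was 0.01.

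The largest difference among the called genes was that of a metallothionein. Mt1, a small protein that binds zinc and copper, had signals of 7.40 to 8.62 (median 7.82) in the floxed arrays and 10.46 to 10.99 (median 10.79) in the knockout arrays at a probe for a predicted transcript. The difference was 2.76 (SE 0.20, adjusted p = 2.12e-07). At the main, far brighter probe every knockout array again lay above every floxed one, 17.44 to 17.86 against 15.91 to 16.53, but the difference of 1.31 (SE 0.29) had an adjusted p of 0.0849. The neighbouring metallothionein Mt2, named after its values were seen, differed by -0.11 (SE 0.38, adjusted p = 0.945).

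Among enzymes of lipid and xenobiotic oxidation outside the mitochondrion, Cyp2a12 and Cyp4a10 were called. Cyp2a12, a steroid hydroxylase of the P450 family, had 4.76 to 5.54 in the floxed arrays (median 5.07), of which 2 were well above background, and 6.59 to 7.81 in the knockout arrays (median 7.18). The difference was 2.09 (SE 0.18, adjusted p = 1.63e-06), but the probe entered the test through the knockout group alone and the value ran from 1.42 to 3.82 over the alternatives. Cyp4a10, a fatty acid omega-hydroxylase and a PPARα target, rose by 1.37 at one probe (SE 0.27, adjusted p = 0.0319), while its brightest probe gave 1.61 (adjusted p = 0.0894) and a dim one 0.61. The call at the first of these probes was kept only without floxed replicate 5 or without iPgc1α-/- replicate 1 when arrays were left out in turn.

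Of the 59 P450 genes of families 1 to 4 in the list, 44 passed the filter. Their median signal in the floxed arrays was 10.9, against 8.05 for all genes tested. At an unadjusted p under 0.05, 10 of the 44 were higher and 0 lower, and the median difference was 0.24. Only 40 of the 44 were well above background in both genotypes, and the count was 8 where every array had to be. Cyp2a12 was well above background on 2 floxed arrays and Cyp2f2, also counted, on 4. Beside Cyp2a12 and Cyp4a10 the largest were Cyp4a31 (1.40, adjusted p = 0.201) and Cyp3a57 (0.62, adjusted p = 0.486). Cyp4a10 and Cyp4a31 are near-identical copies whose probes may bind both transcripts. The count of 10 rested on single arrays, since it was 4 without floxed replicate 1 or 6, 5 without iPgc1α-/- replicate 5 or 6, 6 without iPgc1α-/- replicate 2 or 4 and 16 without iPgc1α-/- replicate 1.

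Peroxisomal oxidation had 5 of 35 genes higher and 0 lower at an unadjusted p under 0.05, led by Acox2 (0.48, adjusted p = 0.421), an oxidase for branched and bile acid side chains, and a median of 0.10. The list of mitochondrial fatty acid oxidation genes and PPARα targets, by contrast, had 2 of 38 higher and a median of 0.00. Both were Cyp4a genes, which do not belong to oxidation in the mitochondrion. The 3 lower were Acat1, Etfa and Bdh1, each between -0.22 and -0.20. The carnitine transferase Cpt1a differed by 0.05 (adjusted p = 0.94) and the medium-chain dehydrogenase Acadm by -0.08 (adjusted p = 0.754).

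Scd1, the desaturase that makes oleate, was already higher on WD than on chow in the floxed mice, by 6.14, and rose further in iPgc1α-/- mice. Its signals were 11.74 to 12.56 in the floxed arrays (median 12.40) and 12.67 to 14.11 in the knockout arrays (median 13.38), without overlap. The difference was 1.16 (SE 0.24, adjusted p = 0.045), and a dim second probe gave 0.80 (SE 0.14, adjusted p = 0.0151). The call at the main probe was kept only without floxed replicate 5, iPgc1α-/- replicate 1 or iPgc1α-/- replicate 6 when each array was left out. Its neighbour Scd3 rose by 0.87 at one probe (adjusted p = 0.014) and differed by 0.04 at the brighter one (adjusted p = 0.901). Between WD and chow in the floxed mice, the called Scd3 probe differed by 1.77 and the brighter one by 0.13. The dim Scd1 probe differed by 1.34 there. Whether the called Scd3 probe also binds the Scd1 transcript was not tested.

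Of the 23 measured genes of fatty acid synthesis, elongation and desaturation, Scd1 was the 1 higher at an unadjusted p under 0.05 at the brightest probe, and 3 were lower. These were the elongases Elovl6 (-0.52, adjusted p = 0.467) and Elovl7 (-0.20, adjusted p = 0.421) and the desaturase Fads2 (-0.26, adjusted p = 0.495). Fasn, the synthase, differed by -0.08 (adjusted p = 0.886). Among genes of fatty acid uptake and lipid export, Cd36, a fatty acid translocase, had 9.44 to 9.69 in the floxed arrays (median 9.60) and 9.58 to 10.57 in the knockout arrays (median 10.34). The ranges overlapped, and the difference of 0.66 (SE 0.24) had an adjusted p of 0.42. Slc27a4, a fatty acid transporter, differed by 0.18 (adjusted p = 0.645) and Mttp, which loads chylomicrons, by 0.19 (adjusted p = 0.613).

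Cholesterol genes showed no called member. Of 31 genes of cholesterol absorption, export and esterification, 3 were higher and 1 lower at an unadjusted p under 0.05, with a median of 0.07. Abcg8, an apical sterol exporter, had 0.28 (SE 0.14, adjusted p = 0.519), its partner Abcg5 0.02 (adjusted p = 0.965), and the absorption transporter Npc1l1 0.09 (SE 0.15, adjusted p = 0.869). For cholesterol synthesis 0 of 27 genes reached an unadjusted p of 0.05 in either direction, and the median was 0.02. Srebf2, which drives that pathway, had 0.28 (adjusted p = 0.574).

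Other called metabolic genes were Sardh and Oplah. Sardh, the mitochondrial sarcosine dehydrogenase of choline breakdown, rose from 8.00 to 8.72 (median 8.34) to 9.35 to 9.82 (median 9.64), by 1.27 (SE 0.16, adjusted p = 5.79e-04). Oplah, which opens 5-oxoproline to glutamate in the glutathione cycle, fell by 0.69 (-0.69, adjusted p = 0.0313). Among the 23 genes past the adjusted test but short of the fold threshold, 22 were lower. Of these, Pgam1 and Aldoa, outside the lists and singled out after their values were seen, are enzymes of glycolysis. Pgam1 had -0.44 and -0.48 at its probes (adjusted p = 0.0111 and 0.00739), and Aldoa had -0.45 (adjusted p = 0.0398). Coq7, which hydroxylates the ring of ubiquinone, differed by -0.40 (adjusted p = 0.0458).

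The remaining called genes belong to no common pathway. Abhd17a, a depalmitoylase, was higher at both probes (0.82 and 0.94, adjusted p = 6.42e-04 and 0.00291), as was the chemokine receptor Ccr8 (0.59, adjusted p = 0.0173). Lower were Ubac1 (-0.78 and -0.62, adjusted p = 3.49e-04 and 0.00782), Ndrg2 (-0.78, adjusted p = 0.0149), Iqcg (-0.77), Rps4l (-0.74), Glipr2 (-0.70) and the linker histone gene Hist1h1e (-0.63). The unnamed transcript AK206655 had the largest decrease among the called genes, with 6.70 to 7.07 in the floxed arrays (median 6.84) and 5.10 to 6.26 in the knockout arrays (median 5.28), a difference of -1.43 (SE 0.15, adjusted p = 2.45e-05). BC021782 (-0.66), 5330426L24Rik (-0.61), ENSMUST00000059737 (-0.59) and a probe named by its place on chromosome 11 (0.66) complete the calls without a symbol.

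In 16 called genes more than 1 probe was tested, and in 4 of them, Nnt, Scd1, Abhd17a and Ubac1, more than 1 was called. In several others a single probe carried the call. Ttc3, a ubiquitin ligase, had 0.78 at one of 7 probes (adjusted p = 1.50e-04) and -0.17 to 0.18 at the other 6. Gmcl1 had -1.10 (adjusted p = 1.79e-04) at one probe and 0.07 at the other. Cdkal1, a tRNA-modifying enzyme, had 1.26 (adjusted p = 0.0237) at one of 4 probes and -0.14 to 0.11 at the others. At the called probe floxed replicates 1, 4 and 5 had 6.0 to 6.25 and floxed replicates 2, 3 and 6 had 7.22 to 7.36. The knockout arrays ran only from 7.89 to 8.07. For such genes the difference was seen at that probe alone, and a change in the level of the whole transcript was not shown. Whether the amount of RNA or the sequence under the probe differs between genotypes was not tested.

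**Figure D4:**
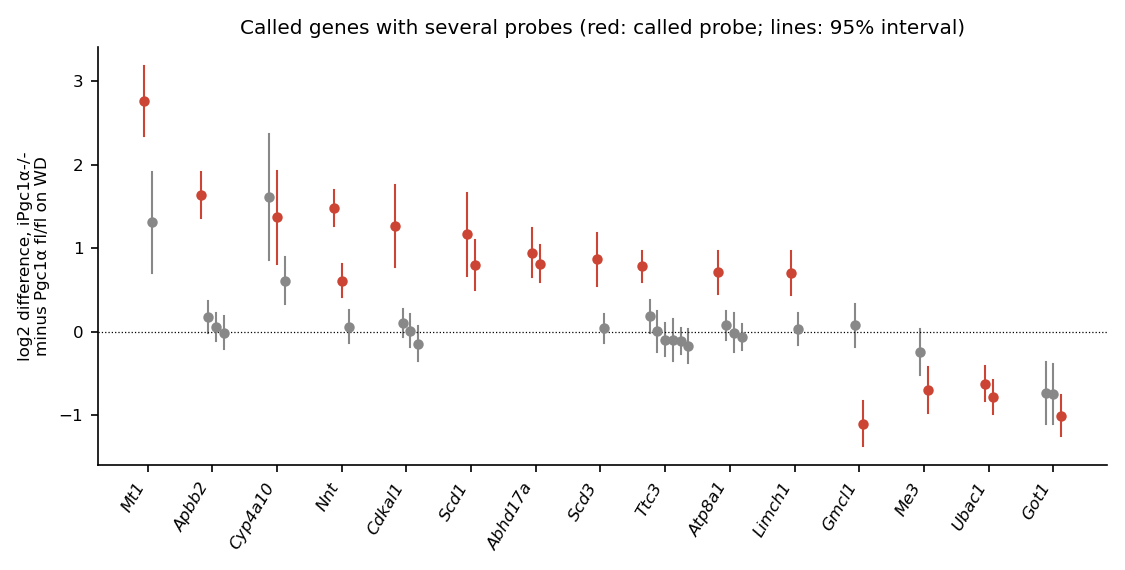
Difference at each tested probe (y axis, log2 of iPgc1α-/- over Pgc1α fl/fl on WD, with 95% interval from limma) of 15 called genes with several probes. Red probes were called; in Ttc3, Apbb2, Atp8a1, Cdkal1, Scd3, Limch1 and Gmcl1 the other probes lie near 0, while those of Got1, Scd1, Abhd17a and Ubac1 lie on one side.

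The position of called genes was examined along the chromosomes and around Ppargc1a, where both genotypes carry loxP sites. Within 10 Mb of Ppargc1a on chromosome 5, 63 genes were tested and 0 were called, with 2 higher and 1 lower at an unadjusted p under 0.05. Farther along, 14.9 Mb from it, 4 called genes lay within 1.22 Mb of one another and all were higher. Between 65 and 69 Mb, the stretch that holds them, 39 genes were tested and 4 called, against 0.162% of all genes. At an unadjusted p under 0.05, 7 of the 39 were higher and 2 lower, with a median of 0.02. Apbb2, a binding partner of the amyloid precursor protein, rose by 1.63 at one of 4 probes (chr5:66790941-66791000, mm9), from 5.65 to 5.92 (median 5.86) to 6.89 to 7.94 (median 7.42), with an adjusted p of 6.27e-07. The 3 other Apbb2 probes differed by -0.01 to 0.18.

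Next to it came Limch1 (0.70, adjusted p = 0.0148), well above background on 1 floxed and 5 knockout arrays and so tested through the knockout group alone, Bend4 (1.0, adjusted p = 0.0122) and Atp8a1, a phospholipid flippase (0.71 at one of 4 probes, adjusted p = 0.0137). The Limch1 difference ran from 0.33 to 2.55 over the alternatives, and a brighter probe gave 0.03. No other group of called neighbours within 5 Mb was as large. Sco2 with Tymp, Got1 with Scd1 and Scd3, Sardh with Ubac1, Ndrg2 with 5330426L24Rik, and Abhd17a with Chchd10 were the rest. Whether the 2 genotypes carry different alleles at any of these places was not tested.

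The lists for protein synthesis and turnover held no called gene. Of 79 cytosolic ribosomal proteins 0 reached an unadjusted p of 0.05, and of 109 ribosome biogenesis factors 1 was higher and 4 lower. Translation factors (0 higher and 2 lower of 52), aminoacyl-tRNA synthetases (1 and 1 of 38), splicing factors (3 and 5 of 92) and general transcription factors (2 and 1 of 82) were similar. For autophagy 7 of 57 were higher and 1 lower, with a median of 0.07, among them the cargo receptor Sqstm1 (0.25, adjusted p = 0.419) and the lysosomal protein Lamp1 (0.22, adjusted p = 0.421). For the unfolded protein and integrated stress responses 6 of 44 were higher and 0 lower, led by the chaperone Dnajb9 (0.40, adjusted p = 0.478), and the median was 0.06, or 0.04 without iPgc1α-/- replicate 5. None of these genes passed after adjustment.

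Cell type markers were compared because a chelation prep of ileum holds several cell types, and in such samples fewer cells of a type cannot be told apart from less RNA per cell. Markers of ileal enterocytes did not shift, with 0 of 19 at an unadjusted p under 0.05 and a median of 0.04. Tuft cell markers were lower by their median of -0.45, with 10 of 18 measured genes at an unadjusted p under 0.05 and 17 with a lower mean. Their level was uneven among the floxed arrays. Averaged per array, it was 0.55 to 0.84 above the mean in floxed replicates 2, 3 and 6. It was -0.28 to -0.18 in floxed replicates 1, 4 and 5, while the 6 knockout arrays lay between -0.29 and -0.10. Floxed replicates 2, 3 and 6 also had fewer spots well above background, 56.3% to 57.0% against 59.6% to 61.7% in replicates 1, 4 and 5. The knockout arrays had 56.7% to 62.3%, and the part of array quality in the tuft cell level was not tested. The kinase Dclk1, a defining marker, had 6.48 to 7.58 in the floxed arrays and 6.50 to 6.82 in the knockout arrays (difference -0.45, adjusted p = 0.456). The prostaglandin synthase Ptgs1 had -0.74 (adjusted p = 0.223). The count of 10 dropped to 5 without floxed replicate 2 or 6 and to 6 without floxed replicate 3.

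MHC class II genes had a median of -0.41, with 3 of 11 lower at an unadjusted p under 0.05, and their average overlapped between genotypes (-0.20 to 0.89 in floxed, -0.55 to 0.17 in knockout arrays). Without floxed replicate 5 the median was -0.23. Of 16 Paneth cell markers 14 had a lower mean and 2 were lower at an unadjusted p under 0.05, led by the ribonuclease Ang4 (-0.89, adjusted p = 0.199). Their median was -0.09, or 0.02 without floxed replicate 1, and the average differed by -0.27, -0.59 and 0.38 within the 3 slides. Of 32 crypt stem cell and Wnt target genes 5 were lower and 1 higher at an unadjusted p under 0.05. Goblet cell, enteroendocrine, plasma cell and T cell lists had at most 1 gene at that level in either direction. Of 27 markers of stroma, muscle, endothelium and glia 5 were lower, and their average was 0.72 in floxed replicate 1 against -0.20 to -0.01 in the other floxed and -0.12 to 0.01 in the knockout arrays.

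The part of these cell types in the mitochondrial differences was not tested. The complex I average was highest in floxed replicates 6 (0.20) and 4 (0.13). Leaving out any 1 of the 12 arrays, 21 to 31 of the complex I genes were lower at an unadjusted p under 0.05, with a median between -0.22 and -0.14.

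**Figure D5:**
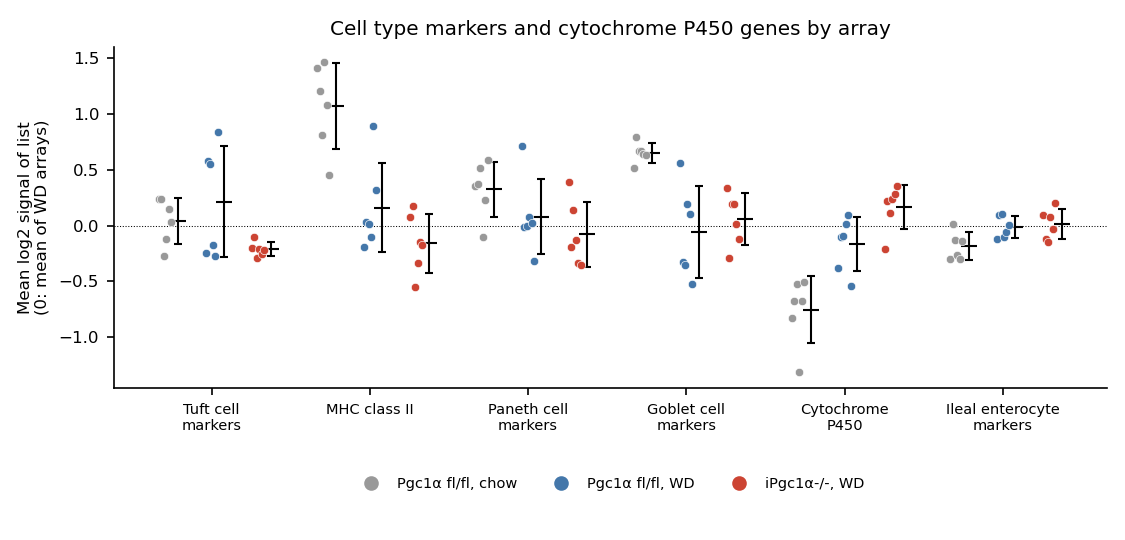
Mean log2 signal per array of cell type marker lists, MHC class II and cytochrome P450 genes, with each gene centred on its mean over the 12 arrays on WD. Points are arrays and bars mean ± SD (n = 6 for each group); the tuft cell average is high in 3 of the 6 Pgc1α fl/fl arrays on WD and in no iPgc1α-/- array.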

How the data were processed

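RNA from ileum cells of 1 mouse per array was hybridised to one-colour Agilent mouse expression arrays. The authors deposited scanner output of spot intensity per probe (Agilent Feature Extraction 10.10.1.1, per the submitters' processing notes) and a table of normalised log2 values, the latter used here only as an alternative. The washing bath and labelling series that the study corrected for are not in the labels and were not used here. Median spot intensity was log2 transformed and normalised between arrays by smooth quantile normalisation, which weights overall and group quantiles (window 0.05), without control and outlier spots. A probe entered the test if, in any group, 5 or more of its 6 arrays passed the scanner's background test, which left 32726 of 56605 probes. limma 3.58.1 (R 4.3.3) was fitted to all 18 arrays with 3 groups, with Benjamini-Hochberg adjustment over all probes, and the contrast of the 2 genotypes on WD was taken. One called gene is counted but not reported here by name. A call needed an adjusted p of at most 0.05 and a fold above 1.5 in either direction. Gene lists were counted at each gene's brightest probe. Named genes were the called ones and, in each list, up to 4 members with the largest difference at an unadjusted p under 0.05, with genes the study discussed and bright cell markers. Other named genes, such as partner subunits and members past the adjusted test alone, were chosen after their values were seen. Members, lists and tests were chosen with earlier results of these data known. The labels give only a replicate number, and the study describes each observation as 1 animal. On that reading p-values measure the spread between these mice, and the number of arrays limits the precision. Alternatives covered background correction, normalisation, the filter, slide and replicate blocks, the fit, the thresholds and leaving out each array. Probe positions are on mm9 and promoters on GRCm38.p6.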

Additional observations from a re-analysis of the deposited data

Results flagged for a closer look

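Of 160 sets of 6 values, 10 held an array that stood apart from the other 5 by Dixon's criterion, which chance meets in about 1 in 20 sets, and 4 of the 10 were floxed replicate 6. That array had the highest Chchd10 signal of its group (15.5, next 15.2), the highest Hist1h1e signal (13.7, next 13.1), and the highest averages for complexes II to IV with ATP synthase (0.205, next 0.082) and for the malate-aspartate shuttle list (0.189, next 0.0398). Floxed replicate 5 had the highest Cox6b2 signal (9.19, next 8.86) and the lowest Me3 signal (8.04, next 8.36). Floxed replicate 1 stood apart in the stroma, muscle, endothelium and glia average (0.719, next -0.0093). Among the iPgc1α-/- arrays, replicate 2 had the highest AK206655 signal (6.26, next 5.47), replicate 1 the lowest Ttc3 signal at the called probe (8.08, next 8.32) and replicate 3 the highest average of erythrocyte and neutrophil markers (0.75, next 0.0677).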

How the results depend on the processing

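The number of called genes was 26 to 43 under other scalings, filters and fits, 58 with no fold threshold, 17 at an adjusted p of 0.01, and 24 to 46 when 1 array was left out. Single genes were followed at the called probe with the largest difference, or at the mean of all probes where that was the alternative. A call by another probe of the gene was not counted. On this basis 12 of the 35 genes were called under every alternative, and Cyp2a12 under all but the strictest filter, which left it untested. Whichever array was left out, 19 were called, and 0 of 939 single-gene values changed direction. The probe on chromosome 11 lost its call without any 1 of the 12 arrays. At the probe followed, Oplah, Me3, Hist1h1e and Cyp4a10 kept their calls in 2 of the 12 cases, and Scd1 and ENSMUST00000059737 in 3. Glipr2 and Cox6b2 kept theirs in 4, Cdkal1 in 5, Ccr8 in 7, Ndrg2 in 9, Limch1 in 10, and Scd3 and 5330426L24Rik in 11. The share of higher genes was 54.3%, and 37.8% on the processed signal, where the median for complexes II to IV with ATP synthase was -0.253. The P450 count was 6 on the processed signal and 5 with array weights; the causes were not tested. When 1 array was left out, the complex I median ran from -0.219 to -0.14 (21 to 31 genes lower at an unadjusted p under 0.05), that of complexes II to IV from -0.213 to -0.154 (24 to 37), the P450 median from 0.179 to 0.331 (4 to 16 higher) and the tuft cell median from -0.552 to -0.323 (5 to 13 lower). The replicate numbers were not taken to pair the samples: no label ties a number to a shared litter or day, and the same-number correlations ran from -0.189 to 0.332, although 3 of 6 arrays correlated best with their own number. With the replicate number as a block 31 genes were called, 28 of them among the 35. Cyp4a10, Glipr2, Oplah, Hist1h1e, Cox6b2, ENSMUST00000059737 and the chromosome 11 probe were not among them. At dim probes the value depended on background correction: on the processed signal and with normexp it was 3.82 and 1.42 for Cyp2a12, 2.55 and 0.328 for Limch1, -2.27 and -0.947 for AK206655, and 1.26 and 0.333 for Ccr8.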
